A study of Rattus norvegicus with 36 samples.

Results

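Liver RNA of rats given the flame retardant HCDBCO at 541 mg/kg per day, the highest dose of the study, was compared with liver RNA of rats given the corn oil vehicle alone. The samples were chosen by the dose in their labels: 6 at 541 mg/kg and 6 vehicle, which is 12 of the 36 samples measured. All rats were male Sprague Dawley animals, 7 weeks old at the start, dosed by gavage in 5 ml of corn oil per kg body weight on 5 days, and their livers were taken 1 day after the last dose. The vehicle rats thus shared the corn oil and the gavage. The remaining left liver lobe was used as bulk tissue, with 1 array per sample. The other groups received 0.05, 0.54, 5.41 or 54.1 mg/kg, and the 18 samples of the 3 lowest doses served as a second reference. The question asked of the comparison was which transcripts the highest dose changed, with weight on genes other than the familiar targets of the receptors CAR and PXR.

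HCDBCO, hexachlorocyclopentadienyl-dibromocyclooctane, is a halogenated hydrocarbon. The liver senses such chemicals mainly through the nuclear receptors CAR and PXR, which switch on cytochromes P450, conjugating enzymes and export pumps. A separate sensor is NRF2, a transcription factor released from its partner KEAP1 when reactive chemicals modify that protein. NRF2 then binds the antioxidant response element in genes for NADPH supply, quinone reduction and glutathione conjugation. Metabolic genes of the hepatocyte are under hormonal control besides, among others by the glucocorticoid and thyroid hormone receptors and by cAMP.

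The labelled tissue was borne out by hepatocyte transcripts: the mean of 11 hepatocyte markers was 13.26 to 13.44 on the log2 scale in the vehicle samples, and Alb, serum albumin, averaged 14.72 over all samples. At 541 mg/kg that mean was 13.17 to 13.28, with 9 of the 11 markers below vehicle and none past the false discovery rate (FDR), although 2 had an unadjusted limma p under 0.05. Over all 31042 probe sets tested, 2816 had an unadjusted p that low. Markers of sinusoidal endothelial cells, the lining cells of the liver capillaries, were lower in 12 of 12 cases, with sample means of 7.79 to 7.96 against 7.82 to 8.24 in vehicle, again with none past the FDR and 4 at an unadjusted p under 0.05. Fewer cells of a type and less RNA per cell cannot be told apart in bulk tissue, and the part of cell composition in the results was not tested. RNA integrity was read from the beta-actin control probe sets: their 3′ end exceeded their 5′ end by 1.18 ± 0.0872 at 541 mg/kg (SD, n = 6) and by 1.13 ± 0.0758 in vehicle (two-sided exact permutation p = 0.307, adjusted over 2 controls 0.528). No label ties a sample to a numbered animal. P-values therefore reflect only how far these samples scatter, part of which may be technical.

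At an FDR of 5% in limma, 48 of 31042 probe sets differed from vehicle, or 0.155%. Of these, 36 were higher (0.116% of all tested) and 12 were lower (0.0387%). Of the 48, 41 carried 1 gene symbol, 3 several and 4 none. A probe set with several Cyp2b symbols, 1371076_at, was higher. It passed in all 12 limma fits that each left out 1 sample (highest adjusted p = 1.24e-06). The 41 covered 39 named genes. The list of CAR and PXR targets accounted for 10 of the 39, all higher. The other 29 genes divided into 19 that rose and 10 that fell, and 17 of the 29 stood on none of the gene lists used here. Across these genes the changes were moderate. The risers outside the list had a median log2 difference of 0.44 and reached 0.73, and the fallers had a median of -0.44 and reached -0.76. Over all 31042 probe sets the median difference was 0.0076, and 2816 had an unadjusted p under 0.05.

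The number of probe sets called rested in part on single samples. It was 18 without 541 mg/kg replicate 4, 21 without 541 mg/kg replicate 1 and 25 without vehicle replicate 4. When each of the 12 samples was left out in turn, 9 of the 29 genes passed every time: Zdhhc2, Pir, App, Trim37, Blvrb and Acad9 among the risers, and Klf9, Atrn and Bmp2k among the fallers. A fit of the 12 samples alone, which estimates the spread from fewer samples, called 31 probe sets. It retained 10 of the 29 genes: App, Cryl1, Mmgt1, Pir, Trim37, Zdhhc2, Abhd1, Atrn, Gnmt and Klf9. Of the 10 CAR and PXR genes, 9 passed in that fit, and 5 passed every time when samples were left out in turn.

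Several risers outside the CAR and PXR list belonged to the electrophile response. Pir encodes pirin, an iron-binding nuclear protein. Its log2 level was 7.39 at lowest, 7.66 at the median and 7.98 at highest at 541 mg/kg, against 6.62, 7.05 and 7.30 in vehicle. Every treated sample lay above every vehicle sample. The difference was 0.69 ± 0.11 (limma SE, 1.61-fold, adjusted p = 0.00102). Me1 encodes the cytosolic malic enzyme, which makes NADPH. Its called probe set ranged from 9.12 to 9.39 (median 9.27) at 541 mg/kg and from 8.21 to 9.02 (median 8.69) in vehicle, without overlap (0.64 ± 0.13, adjusted p = 0.0280). A brighter Me1 probe set gave 0.43 ± 0.11 and did not pass (adjusted p = 0.0947), with 4 of 6 treated samples above every vehicle sample.

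Mgst2, a microsomal glutathione transferase, was measured at 11.34 to 11.68 (median 11.40) at 541 mg/kg and at 10.91 to 11.23 (median 11.08) in vehicle. The groups were separate and the difference was 0.35 ± 0.08 (adjusted p = 0.0343). A pair of genes on the same list did not pass although their groups did not overlap. Aox1, an aldehyde oxidase, was at 11.19 to 11.72 against 10.72 to 11.16 (difference 0.39 ± 0.09, adjusted p = 0.0525). Nqo1, the quinone reductase often used as the reference gene of this response, was at 7.72 to 8.33 against 7.11 to 7.52 (0.69 ± 0.24, adjusted p = 0.315). Hmox1, the inducible heme oxygenase, differed by -0.02 from vehicle, and Nfe2l2, which encodes NRF2 itself, by -0.03; neither passed.

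In all, 30 genes of the NRF2 list were measured. Counting any probe set, 3 rose past the FDR and none fell, against 39 of all 14217 named genes called in either direction. Members of the list were chosen with earlier results of these data known. On the brightest probe set of each gene, 24 of the 30 differences were above 0 and the median was 0.16, against 7586 of 14217 above 0 and a median of 0.0074 over all named genes. Of the 30, 6 were below vehicle, the lowest at -0.49. The glutathione enzymes Gclm (0.28), Gclc (0.23) and Gsr (0.35) were above vehicle without passing. Of 19 other glutathione transferases and peroxidases none passed in limma. An unadjusted p under 0.05 was found in 9 of the 19, 8 of them higher, and in 2816 of all 31042 probe sets. Gstt1, a theta-class transferase, came nearest, at 9.60 to 9.76 against 9.21 to 9.56 (0.33 ± 0.08, adjusted p = 0.0536).

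Promoter sequences were searched for the core of the antioxidant response element, TGACNNNGC, on both strands, in the 250 bases before and 50 bases after each gene start in RefSeq's GRCr8 assembly. It was present in 12.2% of 27457 rat promoters and in 8 of the 32 called genes that had a promoter entry. For the other motifs searched, the cAMP response element TGACGTCA was in 1.91% of all and 2 of the 32, the E-box CACGTG in 6.65% and 2, and the nuclear receptor hexamer AGGTCA in 15.7% and 5. The windows of Pir, Me1, Gsta3 and Abhd1 are shown because they include a pair of NRF2 list members that rose, a CAR and PXR list gene that rose and a gene that fell. Each is written 5′ to 3′ on the strand of the gene, with the match, or its reverse complement, in capitals. Positions count back from the gene start, with -1 for the base before it.
Pir, chrX:33851130-33851188, minus strand, match at -114: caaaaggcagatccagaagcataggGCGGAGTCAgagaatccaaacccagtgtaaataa
Pir, chrX:33851050-33851083, minus strand, match at -9: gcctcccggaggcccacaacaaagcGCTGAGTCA
Me1, chr8:96540378-96540436, minus strand, match at -167: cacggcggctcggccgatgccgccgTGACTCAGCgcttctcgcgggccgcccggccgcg
Gsta3, chr9:31154947-31154988, plus strand, match at -17: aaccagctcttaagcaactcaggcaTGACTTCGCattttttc
Abhd1, chr6:31147593-31147651, minus strand, match at -162: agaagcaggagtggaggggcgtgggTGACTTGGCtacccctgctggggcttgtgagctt
Pir had 2 matches in its promoter, and the other called genes had 1 or none. The letters thus occur in genes that rose and in genes that fell. A match is a description of the letters, not a site or a cause, and TGAC also begins the cAMP response element searched.

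Zdhhc2 showed the largest rise among the called named genes outside the CAR and PXR list. It encodes a palmitoyltransferase, an enzyme that attaches a fatty acid to cysteines of membrane proteins. Its level was 6.62 to 7.04 (median 6.94) at 541 mg/kg and 5.93 to 6.48 (median 6.14) in vehicle, so the groups were separate. The difference was 0.73 ± 0.13 (1.65-fold, adjusted p = 0.00356). It was the only 1 of 27 measured genes of protein lipid attachment to pass. Its relatives Zdhhc9 (0.14) and Zdhhc23 (-0.23) did not, and the list had a median of 0.03.

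App, the amyloid precursor protein, a membrane protein best known from nerve cells but also made in liver, rose on 2 probe sets. On the brighter, levels were 11.05 to 11.38 (median 11.19) against 10.58 to 10.83 (median 10.73), a difference of 0.48 ± 0.07 (adjusted p = 0.000861). On the other, they were 8.81 to 9.44 against 8.18 to 8.68 (0.60 ± 0.10, adjusted p = 0.00356). Both probe sets separated the groups completely. The dimmest App probe set gave 0.50 ± 0.19, with overlapping groups and no call (adjusted p = 0.358). Mmgt1, a membrane protein of the endoplasmic reticulum linked to magnesium transport, likewise rose on both of its probe sets, by 0.52 ± 0.10 (9.95 to 10.47 against 9.65 to 9.87, adjusted p = 0.0122) and by 0.53 ± 0.11 (adjusted p = 0.0197).

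Metabolic enzymes made up a further share of the risers. Cryl1, an NAD-dependent dehydrogenase of the uronate pathway, ranged from 8.35 to 8.75 at 541 mg/kg and from 7.72 to 8.12 in vehicle, without overlap (0.58 ± 0.11, adjusted p = 0.0152). Blvrb, which reduces biliverdin and flavins with NADPH, ranged from 10.23 to 10.61 against 9.85 to 10.13 (0.37 ± 0.06, adjusted p = 0.00102). Acad9, a mitochondrial acyl-CoA dehydrogenase that also serves in complex I assembly, ranged from 9.66 to 10.01 against 9.36 to 9.52 (0.34 ± 0.06, adjusted p = 0.00182). The rises of Blvrb and Acad9 were small, yet in both genes every treated sample lay above every vehicle sample. Adss1, an adenylosuccinate synthase of purine synthesis, rose by 0.44 ± 0.09 (7.30 to 7.90 against 6.97 to 7.29). A dimmer Adss1 probe set overlapped and did not pass (0.18, adjusted p = 0.388). Of 15 measured genes of NADPH supply, Me1 alone passed, on 1 of its probe sets, and the list median was 0.04.

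Membrane and signalling genes were also among the risers. Anxa7, a calcium-dependent membrane-binding annexin, was separate from vehicle (7.47 to 7.98 against 6.86 to 7.37, difference 0.46, adjusted p = 0.0318), and a dimmer probe set was separate without passing (0.31, adjusted p = 0.157). Htatip2, an oxidoreductase with growth-restraining activity, rose by 0.43 ± 0.08 (adjusted p = 0.0152), with 5 of 6 treated samples above every vehicle sample. Slc25a37, the mitochondrial iron importer mitoferrin, rose by 0.35 and Mmp15, a membrane-bound matrix metalloproteinase, by 0.35, each with 5 of 6 samples above every vehicle sample. The dual-specificity phosphatases Dusp3 and Dusp13b rose by 0.23 and 0.29. Dusp3 was separate (9.74 to 9.94 against 9.60 to 9.66), and Dusp13b was the dimmest riser, with a mean level of 4.73. A dimmer Dusp3 probe set overlapped and did not pass (0.21, adjusted p = 0.144).

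The remaining risers were Zwint, Lrrc51 and Trim37. Zwint, a kinetochore protein of dividing cells, was at 8.92 to 9.61 against 8.73 to 9.05 (0.46 ± 0.10, adjusted p = 0.0367), with 1 treated sample inside the vehicle range. The 33 measured cell cycle and DNA replication genes included none past the FDR, and their median was 0.016. Lrrc51, a leucine-rich repeat protein, rose by 0.51 ± 0.11 at a low level (5.15 to 5.92 against 4.89 to 5.31). A still dimmer Lrrc51 probe set overlapped and did not pass (0.28, adjusted p = 0.492). Trim37, a ubiquitin ligase, rose on 1 probe set (0.44 ± 0.07, adjusted p = 0.00286), while a brighter one differed by 0.07 ± 0.08 (adjusted p = 0.868). Its value therefore depended on the probe set.

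**Figure D1:**
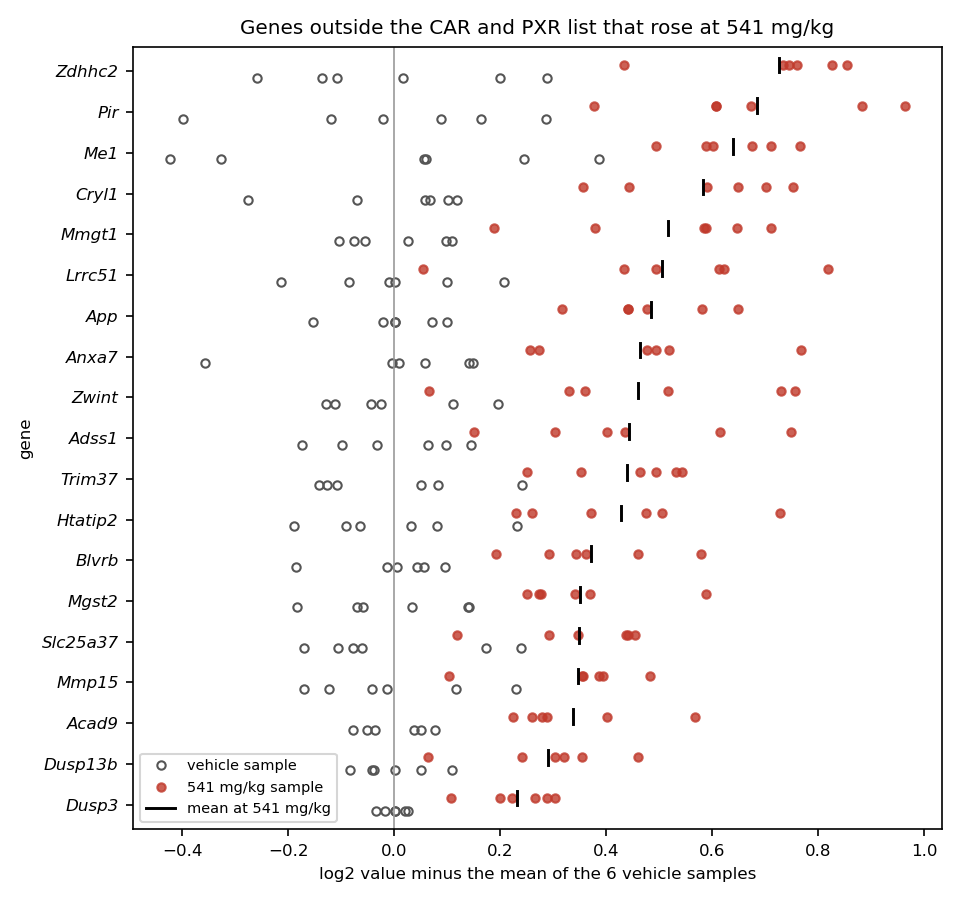
Log2 values of the 19 genes outside the CAR and PXR list that rose at 541 mg/kg, each minus the mean of its 6 vehicle samples, on the brightest called probe set; open points are vehicle samples, filled points are 541 mg/kg samples and the black bar is the treated mean. The bars run from 0.73 for Zdhhc2 to 0.23 for Dusp3, and the treated and vehicle points of Lrrc51, Zwint, Htatip2, Slc25a37, Mmp15 and Dusp13b overlap.

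Klf9 had the largest fall among the called named genes. It encodes a zinc finger transcription factor that glucocorticoids and thyroid hormone induce in many tissues. Its level was 9.28 to 9.78 (median 9.42) at 541 mg/kg and 9.73 to 10.52 (median 10.27) in vehicle, with 5 of 6 treated samples below every vehicle sample. The difference was -0.76 ± 0.13 (1.70-fold lower, adjusted p = 0.00356). A dimmer Klf9 probe set gave -0.74 ± 0.17 with separate groups but did not pass (adjusted p = 0.0636). Klf9 was the only 1 of 22 measured glucocorticoid receptor targets past the FDR. Of the 22, 17 lay below vehicle and the median was -0.15, the lowest median of the 34 lists.

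The other members of that list did not pass. Their differences from vehicle ran from -1.25 to 1.09, and 5 of the 22 members lay above vehicle. Errfi1, a feedback inhibitor of the EGF receptor, was at 11.29 to 12.13 against 12.11 to 12.63 (-0.80 ± 0.20, adjusted p = 0.0931). Nr3c1, the glucocorticoid receptor itself, was at 8.95 to 9.17 against 9.07 to 9.49 (-0.29 ± 0.08, adjusted p = 0.176). Against the 3 lowest doses the same list had a median of -0.03, and Nr3c1 differed by -0.05. The list thus lay closer to the low doses than to vehicle. Klf9 and Me1 were also the only members past the FDR among 15 measured genes of thyroid hormone handling, Klf9 lower and Me1 higher.

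Crem encodes a regulator of cAMP-responsive genes, with both activating and repressing isoforms. On its called probe set the level was 6.28 to 7.17 (median 6.48) against 6.90 to 7.56 (median 7.21), with 5 of 6 treated samples below every vehicle sample (-0.63 ± 0.14, adjusted p = 0.0405). The other 5 Crem probe sets lay between -0.41 and -0.18 and none passed, the brightest at -0.35 ± 0.08 (adjusted p = 0.0543). No other gene among 29 cAMP and immediate early genes passed, and 15 of them were above vehicle.

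A group of the fallers served 1-carbon and nitrogen metabolism. Gnmt, glycine N-methyltransferase, disposes of excess S-adenosylmethionine and is abundant in hepatocytes. Its level was 11.30 to 11.64 (median 11.39) at 541 mg/kg and 11.81 to 12.001 (median 11.94) in vehicle, and all treated samples lay below all vehicle samples. The difference was -0.47 ± 0.09 (1.38-fold lower, adjusted p = 0.0195). Cd320, the cell-surface receptor for transcobalamin-bound vitamin B12, was at 6.60 to 7.25 against 7.34 to 7.59, again without overlap (-0.44 ± 0.09, adjusted p = 0.0263). Glud1, mitochondrial glutamate dehydrogenase, was at 12.47 to 12.68 against 12.76 to 12.95 (-0.25 ± 0.05, adjusted p = 0.0122), and a second probe set gave -0.23 ± 0.05 with separate groups, short of the FDR (adjusted p = 0.0534).

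Among 39 measured genes of methionine, folate and choline metabolism, these 2, Gnmt and Cd320, fell and none rose. The list did not shift as a whole: 20 members were above vehicle and 19 below, with a median of 0.00036. A pair of further members were below every vehicle sample without passing. Mat2a, a methionine adenosyltransferase, was at 6.82 to 7.42 against 7.44 to 8.03 (-0.45 ± 0.16, adjusted p = 0.289), while dimmer Mat2a probe sets gave -0.30 and 0.17, both overlapping. Cth, the enzyme that releases cysteine from cystathionine, was at 12.74 to 12.87 against 12.94 to 13.05 (-0.18 ± 0.05, adjusted p = 0.188). Among the 36 genes of the urea cycle and of amino acid breakdown, Glud1 alone passed and 25 were below vehicle (median -0.08). Markers of periportal hepatocytes, 6 of which are on that list, lay lower beside them: 7 of 9 were below vehicle (median -0.22), with sample means of 10.11 to 10.41 against 10.30 to 10.51. None of the 9 passed, and their part in the result was not tested. An unadjusted limma p under 0.05 was found in 3 of the 9 and in 2816 of all 31042 probe sets. The histidine-degrading Hal (-0.36) and the glutamine synthetase Glul (-0.31) were lower without passing. Glul is also a marker of pericentral hepatocytes. Of 10 such markers measured, 5 were above vehicle and 5 below (median -0.0039), with none past the FDR. An unadjusted limma p under 0.05 was found in 4 of the 10, 1 higher and 3 lower.

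The other fallers came from varied classes. Atrn, the transmembrane protein attractin, was at 9.61 to 9.86 against 10.09 to 10.42, fully separate (-0.47 ± 0.08, adjusted p = 0.00257), while a second, dimmer probe set overlapped and did not pass (-0.17, adjusted p = 0.435). Abhd1, an α/β hydrolase, was at 8.18 to 8.40 against 8.59 to 8.76, also separate (-0.34 ± 0.07, adjusted p = 0.0303). A dimmer Abhd1 probe set overlapped and did not pass (-0.15, adjusted p = 0.576). The related gene Abhd2 had separate groups but did not pass (-0.48 ± 0.12, adjusted p = 0.0931). Bmp2k, a protein kinase, fell by 0.43 on a dim probe set, and a brighter one gave -0.24 without passing (adjusted p = 0.392). Tmem144, a multi-pass membrane protein, fell by 0.42, with -0.20 on a brighter probe set that did not pass (adjusted p = 0.223). Rbm18, an RNA-binding protein, was at 6.97 to 7.23 against 7.23 to 7.50, separate by less than the second decimal (-0.28 ± 0.06, adjusted p = 0.0405). A dimmer Rbm18 probe set gave -0.30, with overlapping groups, and did not pass (adjusted p = 0.332). Rbm18 was the only 1 of 28 genes of transcription elongation and RNA processing to pass, although 25 of the 28 were below vehicle (median -0.11).

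**Figure D2:**
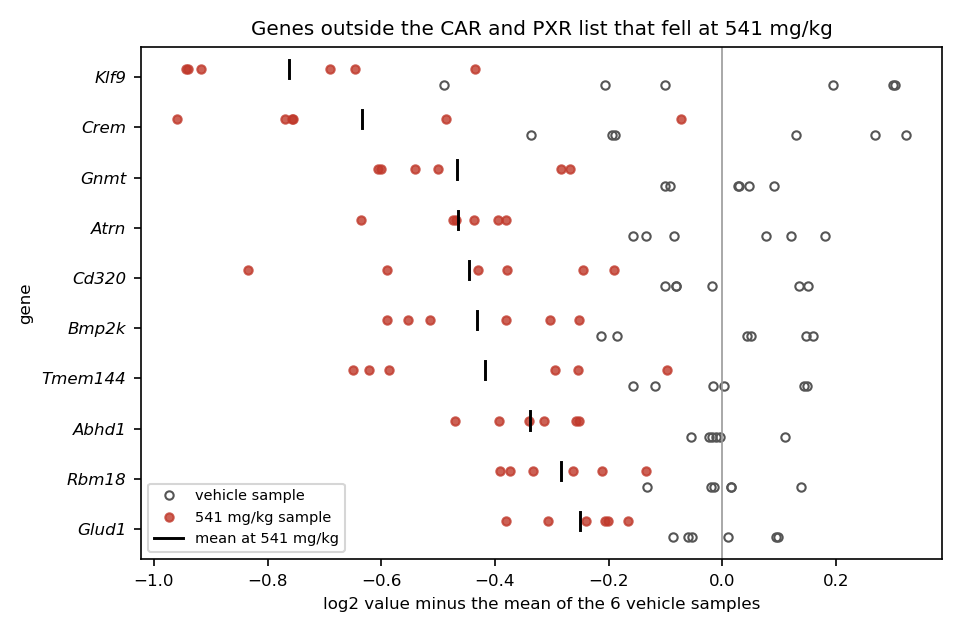
Log2 values of the 10 genes outside the CAR and PXR list that fell at 541 mg/kg, each minus the mean of its 6 vehicle samples, on the brightest called probe set, with open points for vehicle, filled points for 541 mg/kg and black bars for treated means. Klf9 lies lowest at -0.76, and 1 treated sample of Klf9, of Crem and of Tmem144 reaches into the vehicle range.

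The CAR and PXR genes that rose are given briefly as a scale for the others. Abcc3, an export pump for conjugates, was at 5.79 to 8.04 against 4.52 to 5.20, and Ces2c, a carboxylesterase, at 8.50 to 9.35 against 7.14 to 7.69. The 10 genes averaged 0.99 above vehicle, the 19 other risers 0.46, and the 10 fallers -0.45. The called probe set with several Cyp2b symbols is not part of the 0.99. Among the 31 measured genes on that list 21 did not pass, among them the P450 genes Cyp3a2 (0.13) and Cyp2c7 (0.03) and the P450 reductase Por (0.43).

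The 6 treated samples differed in their distance from the vehicle mean. Averaged over the 10 CAR and PXR genes, they stood 1.29, 0.60, 1.16, 0.98, 0.87 and 1.07 above it, in order of replicate number. The vehicle samples lay between -0.17 and 0.10 on the same average. The genes had been selected on their difference between these samples, so the averages are a description, and the source of the spread was not tested. Replicate 2 had the smallest rise in 8 of those 10 genes and in 12 of the 19 other risers. Its mean over the other risers was 0.28, against 0.42 to 0.59 in the other 5 samples. For the fallers it was not the weakest: it stood at -0.51, and the 6 samples ranged from -0.53 to -0.32. Replicate 6 had the largest rise in 10 of the 19 other risers and the smallest fall in 4 of the 10 fallers. Without replicate 2, 63 probe sets passed, of which 49 were higher.

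Along the dose series these gene groups were partly shifted at 54.1 mg/kg already. There the CAR and PXR genes averaged 0.66, the other risers 0.25 and the fallers -0.39. At the 3 lowest doses the other risers averaged 0.06 to 0.09, whereas the fallers averaged -0.19 to -0.17. The genes had been selected on their difference from the same vehicle samples, so these averages are a description. Single genes differed. Mmgt1 (0.03 and 0.10 on its probe sets), Dusp3 (0.06), Adss1 (0.11) and Cryl1 (0.13) were close to vehicle at 54.1 mg/kg, whereas Me1 (0.75) and Crem (-0.74) were at least as far from vehicle there as at 541 mg/kg.

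**Figure D3:**
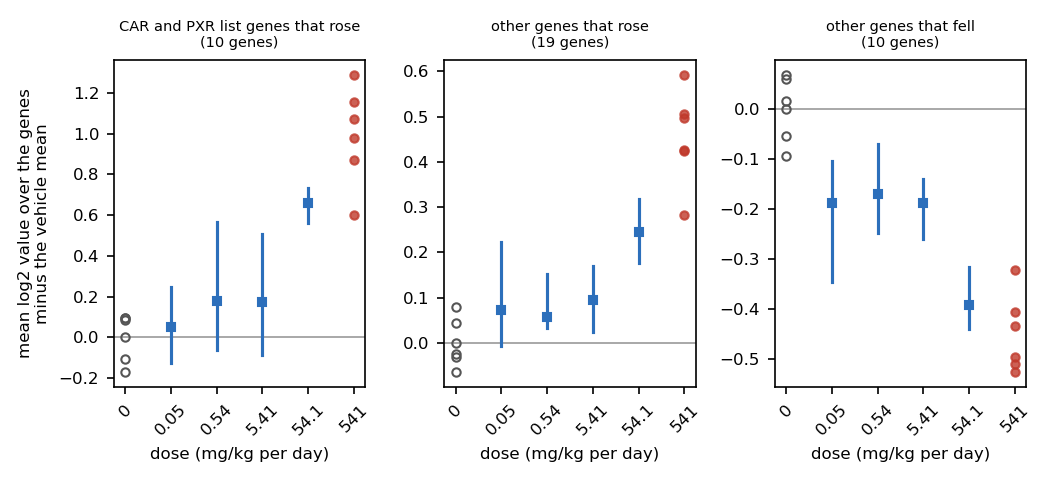
Mean log2 value over the genes of each group minus the vehicle mean, by dose in mg/kg per day with the doses evenly spaced: points are single samples for vehicle (open) and 541 mg/kg (filled), squares are means and lines run from the lowest to the highest of 6 samples for the other doses; the vertical scales differ between panels. The 54.1 mg/kg means are 0.66, 0.25 and -0.39, and the fallers lie below 0 at every dose.

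Set against the 18 samples of the 3 lowest doses, which share the 541 mg/kg samples but no vehicle sample, 84 probe sets passed, 0.271% of those tested, of which 68 were higher and 16 lower. Of the 48 called against vehicle, 30 passed here too, 27 higher and 3 lower; both comparisons use the same 541 mg/kg samples, so this is a description. Of the 19 other risers 14 passed, and of the 10 fallers 3 did: Gnmt (-0.46, adjusted p = 0.00143), Atrn (-0.32, adjusted p = 0.0158) and Abhd1 (-0.26, adjusted p = 0.0330). Klf9 differed by -0.46 ± 0.11 and just missed (adjusted p = 0.0564), its 541 mg/kg samples at 9.28 to 9.78 against 9.46 to 10.34. Crem (-0.27), Cd320 (-0.21), Bmp2k (-0.21), Tmem144 (-0.17), Glud1 (-0.16) and Rbm18 (-0.15) did not pass either. They also stood closer to the low doses than to vehicle. The count fell to 36, 57, 44, 49 and 41 without 541 mg/kg replicate 1, 3, 4, 5 and 6, respectively, and rose to 107 without replicate 2.

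The low-dose reference brought in 54 probe sets not called against vehicle, with 47 further named genes. Cyp2c12, a P450 typical of female rat liver, was at 11.83 to 12.09 at 541 mg/kg, 10.37 to 12.04 at the low doses and 11.10 to 11.52 in vehicle (0.66 ± 0.15 against the low doses, adjusted p = 0.0475; 0.68 ± 0.19 against vehicle, adjusted p = 0.147). All rats were male, and whether the Cyp2c12 probe set read this transcript alone was not tested. Of the 27 genes with sex-biased, growth hormone-driven expression none passed against vehicle, and 14 were above it. Cpt1a, which admits fatty acids to mitochondria, was at 9.87 to 10.395 against 10.23 to 11.06 (-0.53 ± 0.11, adjusted p = 0.0210), and at -0.37 against vehicle. Casp4, an inflammatory caspase, was at 7.52 to 8.08 against 6.67 to 7.60 (0.57 ± 0.12, adjusted p = 0.0141), and was also above every vehicle sample.

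Mnd1, a meiotic recombination protein, was above all 18 low-dose samples (6.36 to 6.55 against 5.62 to 6.27, difference 0.45 ± 0.08, adjusted p = 0.00315) and missed the FDR against vehicle (adjusted p = 0.0503). Stbd1, a glycogen-binding protein, was 0.43 higher and Abcb1a, the P-glycoprotein drug efflux pump, 0.42 higher. Rgs5, a G protein regulator of vessel-associated cells, was 0.47 higher, while the stellate cell and fibroblast markers, on whose list it stands, had a median difference of -0.01 against these doses. Cyp4a8 (0.60), C8h11orf54 (0.43) and the aldo-keto reductase Akr1c15 (-0.39) completed the 10 largest differences. The value of Cyp4a8 came from its dimmer probe set (mean level 4.87), and the brighter one gave 0.38, also past the FDR. Dimmer probe sets of C8h11orf54 (-0.04), Cpt1a (-0.59) and Abcb1a (0.40) did not pass against the low doses. Cyp2c12, Cyp4a8, Rgs5, Stbd1 and Abcb1a did not pass when the fit held only the groups compared. When each 541 mg/kg sample was left out in turn, Mnd1 passed in 6 of 6 fits, Casp4 and Akr1c15 in 4, Cpt1a in 3, Cyp4a8, Rgs5, C8h11orf54 and Stbd1 in 2, Abcb1a in 1 and Cyp2c12 in 0.

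The largest difference from the low doses lay in a probe set with no gene name in the annotation used, 1368718_at. Its level was 10.58 to 12.79 (median 12.004) at 541 mg/kg, 7.08 to 10.66 at the low doses and 8.28 to 10.06 in vehicle. It was 2.88 ± 0.64 higher than the low doses (adjusted p = 0.0344) and 2.70 ± 0.79 higher than vehicle, 6.51-fold, without passing (adjusted p = 0.189). All 6 treated samples were above every vehicle sample. The probe set was singled out after its values were seen.

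Complete separation of the 6 treated from the 6 vehicle samples occurred in 231 probe sets, 0.744% of all, 122 above and 109 below. Of the 48 called probe sets 32 were separate, and 199 separate probe sets did not pass. Among the named genes of these, Nceh1, a cholesteryl ester hydrolase, differed most, at 7.45 to 8.10 against 6.11 to 7.35 (0.87 ± 0.26, adjusted p = 0.192). Hacl1, which cleaves 2-hydroxy fatty acids in peroxisomes, was at 9.80 to 10.31 against 10.32 to 11.55 (-0.71 ± 0.16, adjusted p = 0.0536). Ccdc126 (-0.61, adjusted p = 0.0636), Arhgef26 (-0.60, adjusted p = 0.0536) and Tmem86a, a lysoplasmalogenase (-0.49, adjusted p = 0.147), were also below every vehicle sample.

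Of the 34 gene lists, 21 had no member past the FDR on any probe set. Several of these nevertheless had most members on 1 side of vehicle. Of 39 measured proteasome genes 38 were above vehicle, by a median of 0.12, and none had separate groups. None passed in limma. An unadjusted p under 0.05 was found in 17 of the 39, all 17 higher, and in 2816 of all 31042 probe sets. Psmb7, a catalytic core subunit, came nearest (9.67 to 9.97 against 9.47 to 9.70, difference 0.24 ± 0.06, adjusted p = 0.0931). Against the low doses the proteasome median was 0.09. Of 16 cytosolic heat shock genes 13 were above vehicle (median 0.11), whereas 22 of 29 endoplasmic reticulum chaperone and unfolded protein response genes were below it (median -0.04). Xbp1, a transcription factor of that response, was at 11.20 to 11.98 against 11.87 to 12.35 (-0.53 ± 0.14, adjusted p = 0.147). Genes of 1 list vary together between livers, so these counts are descriptions of the 12 samples.

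Interferon and inflammation genes had the highest median of all lists, 0.28, with 28 of 32 above vehicle. None passed in limma, and 1 of the 32, Ifit3, had an unadjusted p under 0.05, as did 2816 of all 31042 probe sets. Mx2, an interferon-induced GTPase, ranged from 4.80 to 6.93 at 541 mg/kg and from 4.49 to 6.28 in vehicle, so the groups overlapped widely. Against the low doses that median was 0.09. Marker means of T and NK cells were 4.81 to 5.09 against 4.79 to 4.99 in vehicle and those of macrophages 8.13 to 8.77 against 8.02 to 8.86, with no marker past the FDR in either list.

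The lists of cholesterol and fatty acid synthesis, fatty acid oxidation, glucose and bile acid genes had no member past the FDR against vehicle. The 20 cholesterol synthesis genes had a median of 0.08 and the 28 PPAR-alpha and fatty acid oxidation genes one of -0.04. Slc2a2, the liver glucose transporter, was at 10.88 to 11.28 against 11.25 to 11.39 (-0.25 ± 0.06, adjusted p = 0.0993), and Pygl, liver glycogen phosphorylase, was below every vehicle sample (-0.19 ± 0.06, adjusted p = 0.205). Cyp7a1, which starts the conversion of cholesterol to bile acids, was at 9.83 to 11.68 against 8.62 to 10.46 (1.09 ± 0.42, adjusted p = 0.382). The sterol transporters Abcg5 (-0.74) and Abcg8 (-1.004) were lower without passing, with 4 of 6 treated samples below every vehicle sample for each. Hamp, the iron hormone hepcidin, was at 11.10 to 12.77 against 12.52 to 13.08 (-0.72 ± 0.20, adjusted p = 0.147).

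**Figure D4:**
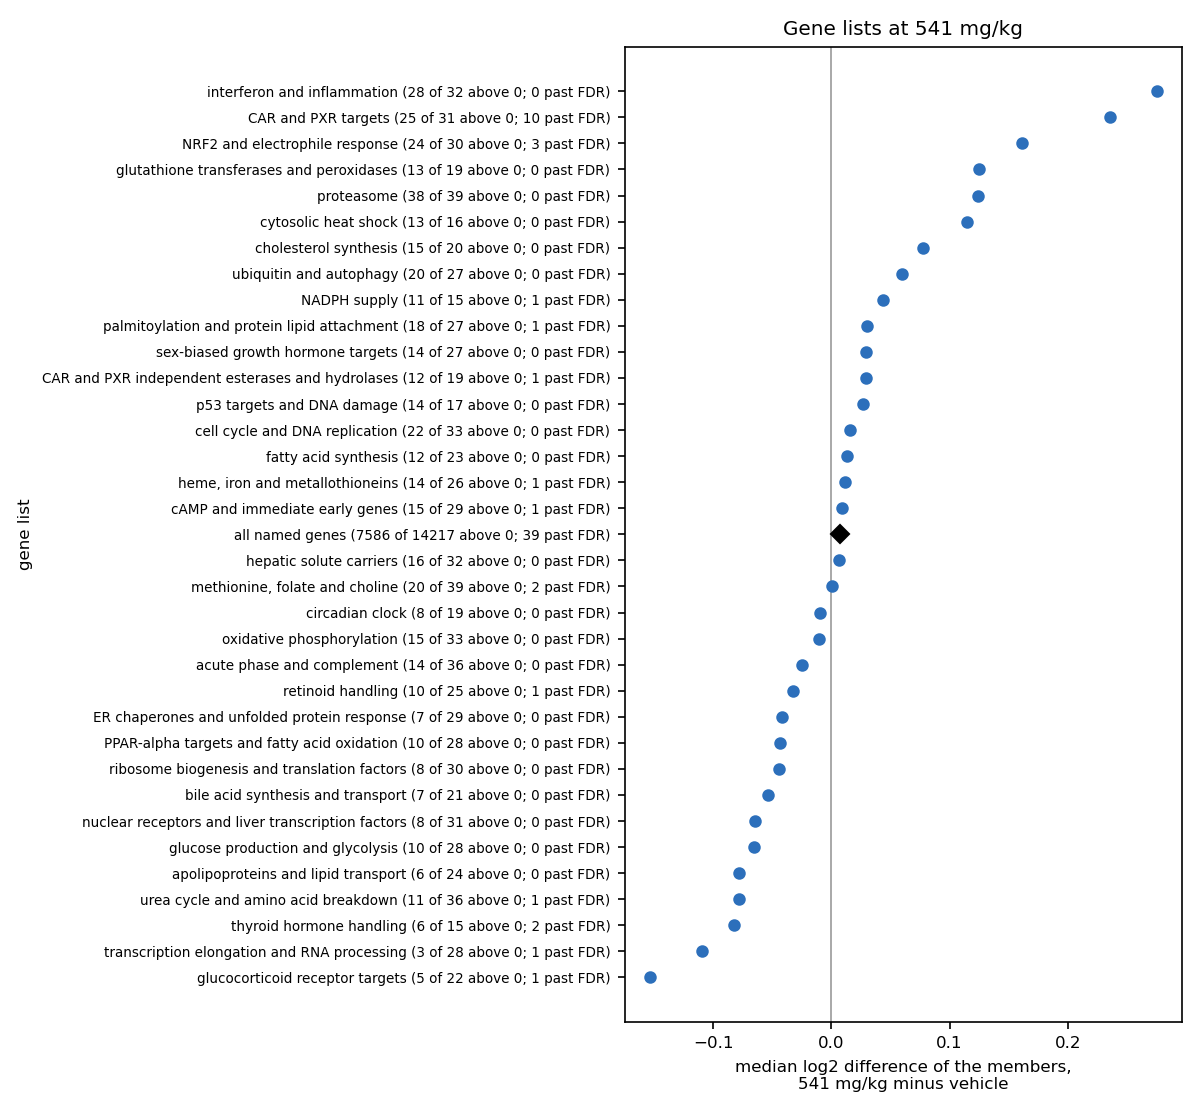
Median log2 difference, 541 mg/kg minus vehicle, over the measured members of each gene list (points) and over all named genes (diamond), 1 probe set per gene, with the number of members above 0 and of those past the FDR on any probe set in the row labels. Medians run from -0.15 for glucocorticoid receptor targets to 0.28 for interferon and inflammation genes, of which none passed.

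The 5 genes with the widest spread among the treated livers are given as a description without a test. They were chosen for that spread, so a narrower spread in vehicle follows in part from the choice. Onecut1, a hepatocyte transcription factor also called HNF6, ranged from 5.11 to 9.34 (SD 1.48) at 541 mg/kg and from 8.33 to 10.06 (SD 0.65) in vehicle. Scd, the stearoyl-CoA desaturase of fatty acid synthesis, ranged from 8.29 to 11.30 (SD 1.25) against 10.22 to 11.04 (SD 0.29). Bcl6, a transcriptional repressor, had an SD of 1.45 against 0.55, and Lum, a collagen-associated proteoglycan, 1.38 against 0.27. Ubd, a ubiquitin-like protein induced by inflammation, varied as much in vehicle (SD 1.60) as at 541 mg/kg (SD 1.61). None of the 5 passed the FDR, and Onecut1 had the lowest difference of all named genes on their brightest probe sets, -2.08 ± 0.62 (adjusted p = 0.190).

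**Figure D5:**
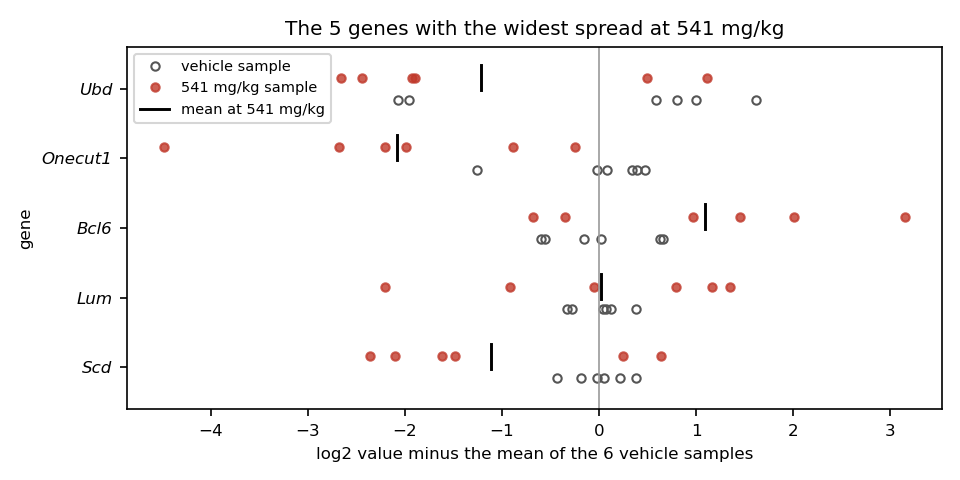
Log2 values, minus the vehicle mean, of the 5 genes with the largest standard deviation at 541 mg/kg among genes with a mean level of at least 6; open points are vehicle samples, filled points 541 mg/kg samples and black bars treated means. The treated points of Onecut1, Bcl6, Lum and Scd spread more widely than the vehicle points, and for Ubd both groups spread alike (SD 1.61 and 1.60).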

How the data were processed

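Per the submitters' processing notes, the authors used RMA and affy (versions not given in the sources used here). The deposited values are taken here to be log2 expression values that the authors made this way, 1 per probe set and array; RMA includes background correction, quantile normalisation and summary over the probes. The scale was judged from the range of the values. From 31099 probe sets, 57 controls were left out. Of the 31042 tested, 20826 had 1 gene symbol, 436 several and 9780 none, covering 14217 genes.

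All 36 samples entered 1 linear model with a mean for each of the 6 groups (30 residual degrees of freedom), in limma 3.58.1 under R 4.3.3, using lmFit and eBayes. The 541 mg/kg group was compared with vehicle and with the mean of the 3 lowest doses. P-values were two-sided and adjusted by Benjamini-Hochberg over the 31042 probe sets together, with calls at 5% FDR. After a difference, ± gives its standard error from limma, with n = 6 per group unless stated. The median standard error was 0.0799; precision is limited by how many arrays there are. The procedure was tested on simulated data. These were drawn independently for each probe set, so variation shared between genes was not covered. Replicate numbers were checked for pairing of samples: correlations of same-numbered 541 mg/kg and vehicle samples ran from -0.21 to 0.12, so no block was used.

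Gene lists used 1 probe set per gene, the brightest over all samples. Genes were drawn by rule: all called genes, up to 3 members per list by p, the 10 largest differences called only against the low doses, the 10 largest separate but uncalled differences, and the 5 largest standard deviations at 541 mg/kg. Not all genes so drawn are named in the text. Other genes were named as examples after their values were seen. Members and lists were chosen with earlier results of these data known.

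Promoters came from RefSeq's GRCr8 table.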

Additional observations from a re-analysis of the deposited data

Results flagged for a closer look

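Of 152 groups of 6 samples examined among the named genes and probe sets, 20 held 1 sample far from the other 5, by Dixon's ratio above its critical value for 6 samples. Chance gives about 1 in 20 groups. All values are on the log2 scale, each followed by that of the nearest sample of its group.

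At 541 mg/kg, replicate 2 was the sample apart in 7 of these. It was lowest for Aldh1a1, a retinal dehydrogenase, at 11.88 (nearest 12.32), for Atrn at 9.61 (9.77), for Mmp15 at 6.64 (6.89) and for Mat2a at 6.82 (7.24). It was also lowest for 1371076_at, a probe set with several Cyp2b symbols, at 12.52 (13.15), for 1370613_s_at, with several symbols, at 12.77 (12.9986), and for the unnamed 1390243_at at 7.14 (7.4997). Replicate 5 was lowest for Zdhhc2 at 6.62 (6.92) and highest for the unnamed 1371864_at at 10.32 (9.93) and 1378144_at at 5.13 (4.81). Replicate 6 was highest for Mgst2 at 11.68 (11.46), and replicate 1 was lowest for Cyp2c12 at 11.83 (11.9988).

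In vehicle, replicate 1 was lowest for Sult2a6, a sulfotransferase, at 8.71 (9.36), and replicate 6 for Anxa7 at 6.86 (7.21). Replicate 2 was highest for Abhd1 at 8.76 (8.64) and lowest for Onecut1 at 8.33 (9.57) and the unnamed 1393666_at at 7.31 (7.4968). Replicate 3 was highest for Cpt1a at 11.005 (10.41) and for 1370613_s_at at 12.91 (12.71), and replicate 4 was lowest for Mnd1 at 5.61 (6.04). No single sample therefore stood apart throughout, and the cause of these values was not tested.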

How the results depend on the processing

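The number of probe sets past the FDR against vehicle, 48, was 31 with only the groups compared in the fit, 79 with probe sets of a mean of at least 5, and 80 with array quality weights. Leaving out 1 sample at a time gave 18 to 63. Against the 3 lowest doses, 84 became 46, 132 and 114 under the same settings, and 36 to 107 when 541 mg/kg samples were left out in turn. Median centring (40 and 69), a trended robust eBayes (62 and 109) and leaving out 54.1 mg/kg replicate 5 (65 and 84) stayed within 1.5 times. The trended robust eBayes ended the calls of Sult2a6 and Dusp13b against vehicle and of Cyp2c12 against the low doses, and leaving out that array also ended that of Cyp2c12. The replicate block gave 44 and 80. It ended the calls of Rbm18, Cd320, Mgst2, Abhd1, Dusp13b, Slc25a37, Mmp15 and Dusp3 against vehicle and of Cyp2c12 and Abcb1a against the low doses. The labels do not say what the replicate numbers stand for, and the correlations of same-numbered 541 mg/kg and vehicle samples did not show pairing. Separate groups, 231, numbered 174 with dim probe sets left out and 202 after centring, which moved the differences by a median of -0.0067. Centring ended the calls of Anxa7, Zwint, Rbm18, Mgst2, Adss1, Slc25a37 and Dusp3. No named gene that passed changed sign under these settings. Raw signal was not used here, so dim probe sets could not be set against background. The cause of these changes in count was not tested.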
